A study of Zea mays with 6 samples.

Results

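A set of 156 nuclear genes of the maize anther, each well expressed in wild type and modestly higher in the zmrpn1 mutant, is described here out of 46430 rows of a gene count table. The genes were chosen by their values in the same libraries. A gene was taken when its mean in wild type (WT) lay from 20 to 300 CPM (a gene's counts per 1000000 counts of its library), its mean in zmrpn1 was at least 1.3 and under 2 times the WT mean, and every zmrpn1 library lay above every WT library. Genes from Zm00001d021621 to Zm00001d021845 and from Zm00001d035236 to Zm00001d035526 were left out, which removed 1 gene that met the rest of the rule. The rule therefore fixed both the direction and the size of the difference, and the values of these genes are given as a description.

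The libraries were made from total RNA of whole maize (Zea mays) anthers at the stages labelled S3 to S5. The WT group, coded AA, had 3 libraries, and the zmrpn1 group, coded aa, had 3 libraries from plants given as a knockout of ZmRPN1, with Mutator in their titles and zmrpn1-1 in the design. Mutator is a family of maize transposons used to make insertion mutants. The labels do not give the inbred background, whether WT plants were siblings of the mutants, whether anthers were pooled, or whether the replicates were separate plants, and p-values therefore rest on the variation among these replicate libraries alone. The title of the study ties ZmRPN1 to pollen number, and the design sets mutant anthers against WT anthers to find transcripts of altered amount.

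In the young anther, each lobe builds a wall of epidermis, endothecium, middle layer and tapetum around the germ cells that enter meiosis. The tapetum is the innermost wall layer and feeds the developing pollen. RNA of a whole anther mixes all these cells, so a difference in the number of cells of a type and a difference in RNA per cell cannot be told apart in any value below. The reference gene table, made for another build (NAM-5.0), paired 0 of the 44146 nuclear identifiers and 0 of the 156 genes with a name, so genes are given by identifier, no role is assigned to them, and neither the markers of anther cell types nor the level of ZmRPN1 itself was analysed here.

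Library totals ran from 16203290 to 29515176 counts. The lowest count of any of the 156 genes in a library was 287, for which counting alone gives a coefficient of variation (CV) of 5.9%, and the highest was 8931. Over all 23477 tested genes the median log2 change was 0.001, and the edgeR quasi-likelihood test, at a threshold of 0.05 on p adjusted by Benjamini and Hochberg, called 6.63% higher and 5.82% lower in the mutant.

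The raised genes were a small upper tail of a population in which most ratios lay close to 1. Of 44146 nuclear rows, 10673 (24.2%) had a WT mean of 20 to 300 CPM, and the quartiles of their ratio of zmrpn1 to WT were 0.958 and 1.05. A ratio of at least 1.3 and under 2 was found in 157 of them, and 1 was left out by its identifier. In all 157 the groups were already apart, so the requirement that libraries do not overlap removed 0 genes. Small differences without overlap were seen in both directions. Every zmrpn1 library lay below every WT library in 1331 of the 10673 rows, and the share of all tested genes on that side was not counted. Every zmrpn1 library lay above every WT library in 1473 of the 10673 rows (13.8%, against 15.2% of all tested genes). Of these 1473 rows, 1296 had a ratio under 1.3 and 20 had a ratio of 2 or more. The 156 genes are thus 1.46% of the rows in their range of levels.

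**Figure D1:**
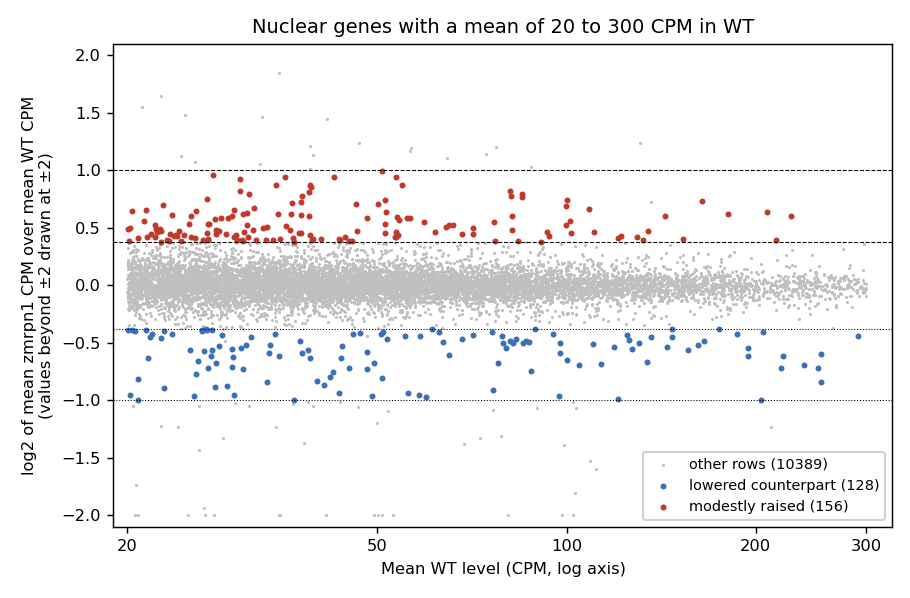
Ratio of the mean zmrpn1 level to the mean WT level (log2, vertical axis) against the mean WT level (CPM, log axis) for the 10673 nuclear rows of 20 to 300 CPM. Red points are the 156 raised genes between dashed lines at ratios of 1.3 and 2, blue points the 128 genes lowered by the mirrored rule between dotted lines, and grey points all other rows, most of which lie close to 0.

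The levels of the set were moderate and its ratios leaned to the lower limit. The WT means had a median of 36.8 CPM and quartiles of 27.2 and 57.1 CPM, and the highest was 228 CPM. The ratio had a median of 1.4 and quartiles of 1.34 and 1.54. Between 1.3 and 1.4 lay 77 genes (49.4%), between 1.4 and 1.5 lay 27, between 1.5 and 1.6 lay 24, between 1.6 and 1.8 lay 18, and from 1.8 to 2 lay 10. The median ratio was 1.39 among the 101 genes of 20 to 50 CPM, 1.44 among the 38 of 50 to 100 CPM, 1.38 among the 14 of 100 to 200 CPM and 1.52 among the 3 above 200 CPM. The rule held every ratio from 1.3 to under 2 and the last class had 3 genes, so no course with level is read from these medians.

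As a sum, the 156 genes took 8251, 8095 and 8057 CPM in the WT libraries and 11729, 11780 and 12370 CPM in the zmrpn1 libraries. This is 0.825%, 0.81% and 0.806% of all counts in WT against 1.17%, 1.18% and 1.24% in zmrpn1. The means were 8134 ± 103 and 11960 ± 356 CPM (SD, n = 3), a ratio of 1.47. The difference of 3826 CPM was spread over the set, since the 10 genes with the largest differences made up 21.8% of it.

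**Figure D2:**
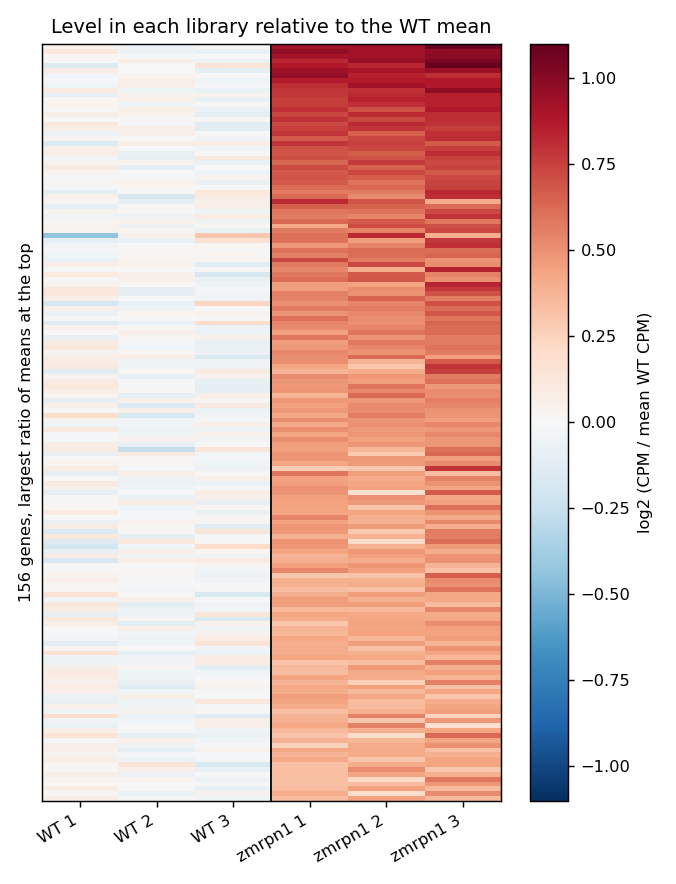
Level of each of the 156 genes (rows, the largest ratio of means at the top) in each of the 6 libraries (columns) as log2 of its CPM over its mean WT CPM. The WT columns stay near 0 and the zmrpn1 columns are above them in every row, as the rule requires, and zmrpn1 replicate 3 holds the darkest cells of many rows.

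In the edgeR fit over all 23477 tested genes, 154 of the 156 were called higher, beside 6.63% of all tested genes and 6.04% of the rows of 20 to 300 CPM. The rule used this same contrast, so nothing is read from the count. DESeq2 called 154 of them higher, beside 5.03% of all tested genes, and limma-voom 156, beside 6.39%. The log2 changes in this fit, which scales libraries by TMM (trimmed mean of M-values), ran from 0.37 to 0.98, and their standard errors (SE) from 0.052 to 0.226 with a median of 0.065.

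The genes with the largest ratios nearly doubled. Zm00001d046632 stood at 52.1, 49.1 and 51.4 CPM in WT and at 95.8, 97.3 and 111 CPM in zmrpn1, a ratio of 1.994 and a log2 change of 0.98 (SE 0.06). Zm00001d012401 stood at 29.6, 26.4 and 26.1 CPM in WT and at 53.8, 51.7 and 53.9 CPM in zmrpn1, a ratio of 1.944. Zm00001d014491 stood at 54.1, 52.8 and 53.5 CPM in WT and at 101, 101 and 107 CPM in zmrpn1, a ratio of 1.925. In these genes the lowest zmrpn1 library stayed far above the highest WT library, and for Zm00001d014491 the gap was 87.4% of the WT mean, the widest of the set. Zm00001d020926 stood at 42.7, 44.6 and 40.7 CPM in WT and at 75.7, 83 and 87.5 CPM in zmrpn1. Zm00001d001820 stood at 32.1, 30.4 and 28.3 CPM in WT and at 57.8, 56.5 and 58 CPM in zmrpn1, a ratio of 1.899. Zm00001d043693 stood at 53.4, 55.8 and 54.8 CPM in WT and at 107, 98.3 and 96.2 CPM in zmrpn1, a ratio of 1.835. None of these had a zmrpn1 library near the WT range, and their log2 changes in the edgeR fit ran from 0.86 to 0.98. Zm00001d027901, picked out after its values were seen for a ratio of 1.919 between those, was less even, at 32, 35.7 and 39.2 CPM in WT and at 65.5, 63.2 and 76.5 CPM in zmrpn1.

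The most heavily counted genes differed by ratios from 1.31 to 1.56. CPM is not divided by transcript length, so its order between genes is an order of counts and not of transcript number. Zm00001d042540 had the highest WT mean and stood at 245, 237 and 201 CPM in WT and at 340, 364 and 332 CPM in zmrpn1, a ratio of 1.517. Zm00001d044455 stood at 227, 212 and 207 CPM in WT and at 276, 282 and 291 CPM in zmrpn1, a ratio of 1.314. Zm00001d047933 stood at 213, 210 and 201 CPM in WT and at 312, 315 and 343 CPM in zmrpn1, a ratio of 1.555. Both groups were tight in Zm00001d044455, while in Zm00001d047933 zmrpn1 replicate 3 lay above the other zmrpn1 libraries. WT replicate 3 lay below the other WT libraries in Zm00001d042540. In Zm00001d043413 the same library lay above the others, with 170, 171 and 202 CPM in WT and 274, 249 and 310 CPM in zmrpn1. The log2 changes of Zm00001d042540, Zm00001d044455, Zm00001d047933 and Zm00001d043413 were 0.59, 0.38, 0.63 and 0.6 with standard errors of 0.06, 0.05, 0.05 and 0.07.

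At the lower limit of the rule the differences were small in ratio, though the groups did not overlap. Zm00001d014564, with the smallest ratio of 1.301, stood at 23.9, 22.3 and 21.8 CPM in WT and at 28.7, 30.8 and 28.9 CPM in zmrpn1. Zm00001d003493 stood at 37.3, 35 and 37.9 CPM in WT and at 48.9, 42 and 52.7 CPM in zmrpn1. Zm00001d038618 stood at 95.5, 91.5 and 86.4 CPM in WT and at 115, 124 and 117 CPM in zmrpn1. Of these, Zm00001d003493 had the most uneven zmrpn1 values, and its lowest zmrpn1 library lay 4.02 CPM above its highest WT library. Zm00001d042921 was more even, with 84.7, 83.8 and 82.4 CPM in WT and 105, 106 and 117 CPM in zmrpn1. The log2 change of each of these genes in the edgeR fit was 0.37, with standard errors of 0.06 or 0.07.

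The limits of the rule cut through a continuous range of values at 3 of their 4 ends. At the ratio of 1.3, Zm00001d014564 stood inside at 1.3015 and Zm00001d019036, with a WT mean of 86.1 CPM, outside at 1.2988. At the ratio of 2, Zm00001d046632 stood inside at 1.9937 and Zm00001d047260, with a WT mean of 39 CPM, outside at 2.023. At 20 CPM, Zm00001d044083 stood inside with a WT mean of 20.06 CPM and Zm00001d024227 outside with 19.87 CPM. Values on either side of these limits differed little, but at 300 CPM the nearest values lay far apart. Zm00001d042540 was the highest inside with a WT mean of 227.6 CPM, and the next gene outside that met the rest of the rule was Zm00001d028750 with 428.1 CPM. It stood at 457, 427 and 401 CPM in WT and at 651, 664 and 664 CPM in zmrpn1. The lowest gene inside, Zm00001d044083, stood at 23, 17.7 and 19.5 CPM in WT and at 26.9, 29.6 and 28 CPM in zmrpn1, a ratio of 1.405.

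**Figure D3:**
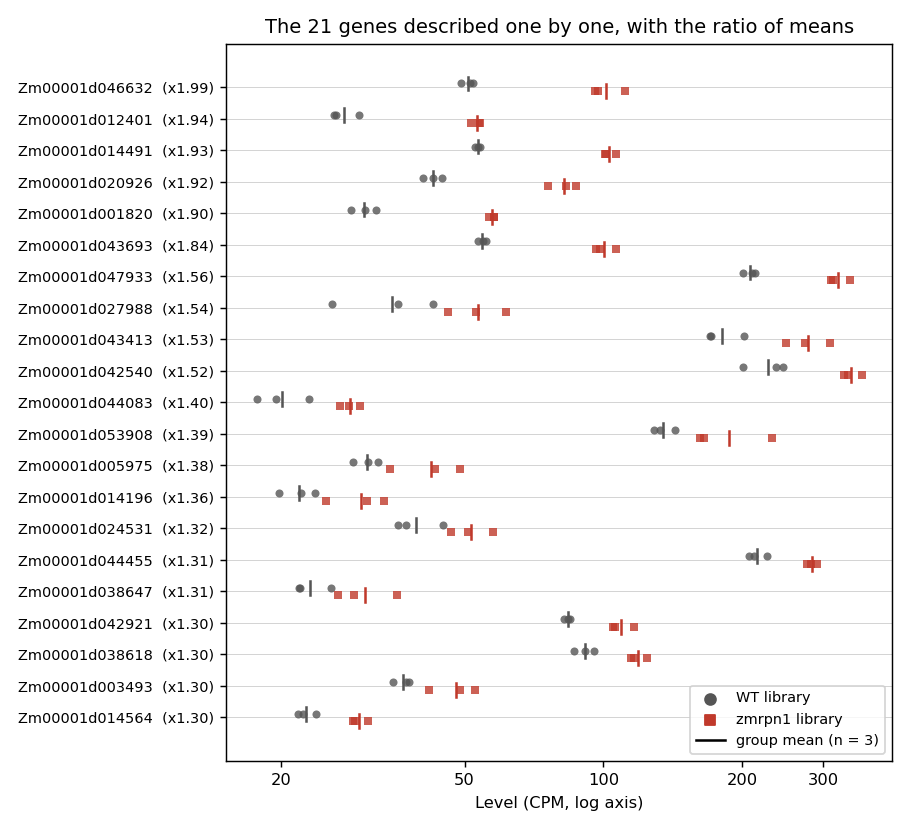
Level (CPM, log axis) in each of the 6 libraries for the 21 genes described one by one, ordered by the ratio of means given beside each identifier. Grey circles are WT libraries, red squares zmrpn1 libraries and vertical strokes group means (n = 3); the squares lie clear of the circles in Zm00001d014491 and close to them in Zm00001d038647.

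The separation of the groups varied widely within the set. The gap between the lowest zmrpn1 and the highest WT value had a median of 29.3% of the WT mean and quartiles of 22.2% and 40%. It was at least 50% in 30 genes and under 10% in 6. The narrowest gap, 4.28%, was that of Zm00001d038647, at 25.6, 21.8 and 22 CPM in WT and 28.8, 26.6 and 35.7 CPM in zmrpn1. Zm00001d024531 had a gap of 4.75%, at 44.8, 37.3 and 35.8 CPM in WT and 50.9, 57.6 and 46.7 CPM in zmrpn1. In both a single library narrowed the gap from the WT side, WT replicate 1. Zm00001d005975 stood at 28.7, 30.8 and 32.5 CPM in WT and at 43.2, 34.5 and 49 CPM in zmrpn1, a gap of 6.53%. Zm00001d014196 stood at 19.8, 23.6 and 22.1 CPM in WT and at 30.8, 25.1 and 33.5 CPM in zmrpn1, a gap of 6.55%. In these it was zmrpn1 replicate 2 that lay low.

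The 2 genes that edgeR did not call were the least even of the set. Zm00001d027988 stood at 25.8, 35.9 and 42.7 CPM in WT and at 52.9, 61.4 and 46 CPM in zmrpn1, a log2 value of 0.59 (SE 0.23, edgeR adjusted p = 0.227). Its WT CV of 24.5% was the highest among the 156. Zm00001d053908 stood at 143, 133 and 129 CPM in WT and at 162, 166 and 233 CPM in zmrpn1, a log2 value of 0.46 (SE 0.18, edgeR adjusted p = 0.225). Its zmrpn1 CV of 21.2% was the highest, through replicate 3. Without zmrpn1 replicate 3 its log2 change was 0.27 (edgeR adjusted p = 8.75e-05). Zm00001d027988 passed without WT replicate 1 (log2 change 0.42, edgeR adjusted p = 0.0178) and without WT replicate 3 (log2 change 0.79, edgeR adjusted p = 0.0485). Limma-voom called both.

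Most genes were more even than these. The median CV of the 156 genes was 4.92% in WT and 4.41% in zmrpn1, against 4.4% and 4.72% over all rows of 20 to 300 CPM. The upper quartile of the CV was 7.1% in WT and 7.57% in zmrpn1, against 6.34% and 6.95% over all these rows. The CV was at least 10% in 12 genes in WT and in 28 genes in zmrpn1. In 46 genes the highest library of each group was at most 1.1 times the lowest. Such rows were not counted over the whole range, so nothing is read from these counts. The most even gene was Zm00001d003247 in WT, at 37.8, 37.8 and 38.1 CPM with a CV of 0.523%, and Zm00001d010380 in zmrpn1, at 63, 63.1 and 63.5 CPM with a CV of 0.388%. Both were picked out after their values were seen, as was every gene named below that has no values above.

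The zmrpn1 libraries did not share the higher level evenly. Zmrpn1 replicate 3 was the highest of the zmrpn1 libraries in 93 of the 156 genes (59.6%), replicate 2 in 38 and replicate 1 in 25. Over all rows of 20 to 300 CPM replicate 3 was the highest in 32%, and among the 128 genes of the lowered counterpart in 35.9%. The median log2 level over the WT mean was 0.48 in replicate 1, 0.48 in replicate 2 and 0.55 in replicate 3. All 3 libraries lay above WT, as the rule requires, with replicate 3 somewhat further. The WT libraries were uneven too, with WT replicate 1 the highest of them in 48.1% of the raised genes and 46.1% of the lowered counterpart, against 29.1% of all rows of 20 to 300 CPM. The median log2 level of the raised genes over their WT mean was 0.03 in that library.

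In 12 genes (7.69%) zmrpn1 replicate 3 was at least 1.2 times the mean of the other 2 zmrpn1 libraries, against 1.25% of all rows of 20 to 300 CPM and 4.69% of the lowered counterpart. The excess was highest in Zm00001d053908, at 1.42 times. Zm00001d042107 stood at 29.8, 27.3 and 38.2 CPM in zmrpn1 and at 23.7, 21.4 and 21.3 CPM in WT. Zm00001d030530 stood at 207, 189 and 257 CPM in zmrpn1 and at 141, 144 and 145 CPM in WT. In these genes replicates 1 and 2 were also above WT, by less. Over the 12 genes the median ratio to WT was 1.41 with all libraries and 1.28 without replicate 3, and in 7 of them it was under 1.3 without it. The opposite pattern, replicate 3 lower than the others by the same factor, was seen in 3 genes (1.92%). It was seen in 2.65% of all rows of 20 to 300 CPM and in 1.56% of the lowered counterpart. The lowest relative value, 0.783, was that of Zm00001d051684, at 45.3, 41.7 and 34.1 CPM in zmrpn1 and 26.3, 24 and 26.9 CPM in WT. A high zmrpn1 value helps a gene to meet the rule, so these shares describe the set and were not tested.

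**Figure D4:**
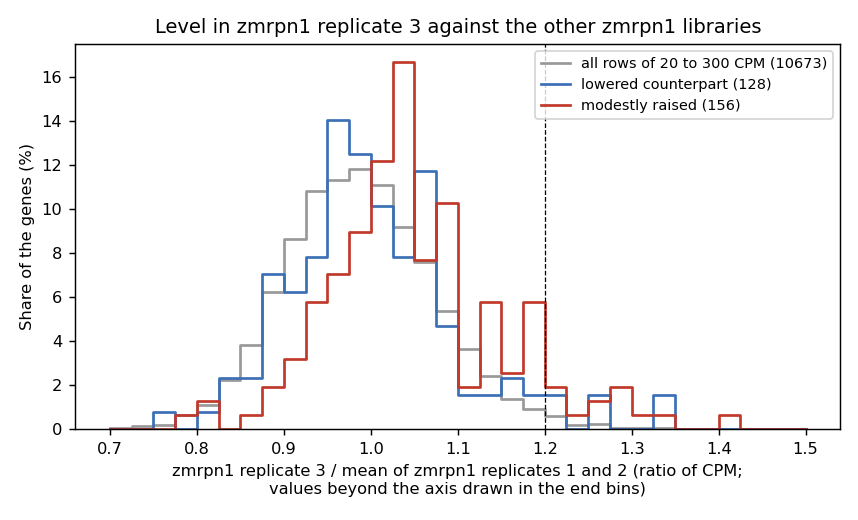
Share of genes (%, vertical axis) by the level of zmrpn1 replicate 3 over the mean of zmrpn1 replicates 1 and 2 (horizontal axis) for the 156 raised genes (red), the 128 lowered genes (blue) and the 10673 rows of 20 to 300 CPM (grey). The raised genes lie to the right of the others, with 7.69% of them at or beyond the dashed line at 1.2 against 1.25% of all rows.

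When the rule was applied to 5 libraries, the library left out lay on the same side for nearly all the genes found, though the opposite group it is set against was the one used to choose them. Without zmrpn1 replicate 3 the rule found 147 genes, and in 147 of them replicate 3 lay above every WT library, as it did in 30.2% of all rows of 20 to 300 CPM. The median ratio of those genes was 1.41 in the libraries used and 1.44 in replicate 3. Leaving out the other libraries found 152 to 181 genes, and the share with the library left out on the same side was 99.4% to 100%, against 24.9% to 35.9% of all rows in the range. The median ratio in that library was 1.37 to 1.44, beside 1.38 to 1.41 in the libraries used. Genes at least 1.3 times apart in 5 libraries, with little spread within groups, leave little room for another outcome. These shares and ratios therefore describe the set and are no independent test of it. Between 132 and 149 of the 156 genes met the rule again each time. Of the 24 genes lost without zmrpn1 replicate 3, all 24 fell under a ratio of 1.3, the lowest to 1.2.

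Compared with the 128 genes of the same range lowered by the mirrored rule, the raised genes had a lower median level in WT and a smaller median change. The lowered genes had a median WT mean of 50 CPM, against 36.8 CPM for the raised genes and 47.1 CPM for all rows in the range. Their median log2 ratio was -0.55, against 0.49 for the raised genes, and 34.4% of them lay within a factor of 1.4, against 49.4%. Raised genes made up 1.77% of the rows of 20 to 50 CPM, 1.21% of those of 50 to 100 CPM, 0.928% of those of 100 to 200 CPM and 0.88% of those above. Lowered genes made up 1.12%, 1.05%, 1.46% and 2.64% of the same classes, the last from 9 genes. As a sum the lowered genes went from 9693 ± 120 to 6475 ± 8.03 CPM (SD, n = 3). Their fall of 3218 CPM was of similar size to the 3826 CPM gained by the raised genes. The levels compared are those in WT, which also divide the ratio, and the median levels in zmrpn1 were not compared. Both sets were chosen on these values, so none of these differences was tested.

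The raised genes lay in many parts of the count table. In it 142 of 142 neighbouring pairs of microRNA precursors of one chromosome were in the order of the reference. No 2 raised genes were in adjacent rows, and successive ones were a median of 163 rows apart, with quartiles of 62 and 398. In 4 cases they were within 5 rows. The nearest were Zm00001d028992 and Zm00001d028995, 2 rows apart. Zm00001d028992 stood at 32.2, 33.1 and 36.8 CPM in WT and at 46.1, 43.5 and 45 CPM in zmrpn1. Zm00001d028995 stood at 23.8, 23.5 and 24.3 CPM in WT and at 32.7, 33.4 and 30.9 CPM in zmrpn1. They belong to the fullest run of 100 consecutive rows of 20 to 300 CPM, which held 7 raised genes from Zm00001d028752 to Zm00001d029107. The mean was 1.47 per run, and 26.9% of such runs held none. That run was picked as the highest of all overlapping runs. The spacing of genes placed at random was not computed, so these distances are a description.

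Among the rows next to raised genes, calls of the same direction outnumbered those of the other. Of the 193 tested nuclear rows directly beside a raised gene and not in the set, edgeR called 24 higher (12.4%) and 7 lower (3.63%), against 6.01% and 5.86% of all tested rows outside the set. At a distance of 2 rows 20 of 167 were called higher (12%) and 4 lower (2.4%). From 3 to 5 rows away 8.22% were called higher and 6.46% lower, and from 6 to 10 rows 9.15% and 6.41%. At 11 to 20 rows the shares were 5.85% higher and 6.4% lower, and at 21 to 50 rows 5.3% and 5.82%. Lower calls were thus scarce only at 1 and 2 rows. Beyond 10 rows the share of higher calls was near that of all tested rows outside the set. Directly beside the lowered genes the shares were turned round, with 16 of 154 adjacent rows called lower (10.4%) and 7 called higher (4.55%), and with 8% lower and 6% higher at 2 rows. From 3 to 5 rows away 6.51% were called lower and 5.54% higher. From 6 to 10 rows away the order was the other way, with 36 of 668 called lower (5.39%) and 61 called higher (9.13%), a share of higher calls like that at the same distance from raised genes. These shares are descriptions and were not tested. Genes that overlap may share counts, and their part in these shares was not tested.

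**Figure D5:**
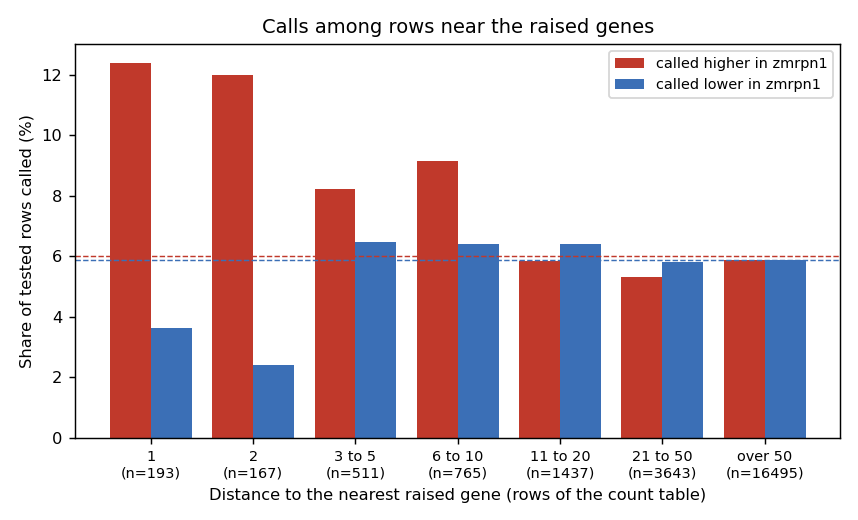
Share of tested nuclear rows outside the set (%, vertical axis) called higher (red) or lower (blue) in zmrpn1 by edgeR at an adjusted p under 0.05, by distance in rows of the count table to the nearest raised gene (horizontal axis, with the number of rows tested). Dashed lines give the shares of all tested rows outside the set, 6.01% and 5.86%; higher calls stand at 12.4% and 12% at 1 and 2 rows.

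The adjacent rows called higher had a median log2 change of 0.42, from 0.17 to 1.3, and 13 of the 24 averaged under 20 CPM in WT, so that the rule could not have taken them. The largest change was in Zm00001d003452, beside Zm00001d003457, at 6.89, 5.74 and 7.28 CPM in WT and 15.7, 15.1 and 19.1 CPM in zmrpn1 (log2 change 1.3, SE 0.11, edgeR adjusted p = 1.52e-11). Zm00001d003457 itself stood at 124, 119 and 123 CPM in WT and at 155, 153 and 185 CPM in zmrpn1. The neighbour thus changed by more, from a level far below. Zm00001d029778 rose from 10.1, 7.78 and 10.9 CPM to 22.9, 22.9 and 25.9 CPM (log2 change 1.28, SE 0.1, edgeR adjusted p = 6.83e-13). Beside it Zm00001d029777 stood at 33.6, 31.7 and 27.9 CPM in WT and at 41.3, 42.1 and 41.6 CPM in zmrpn1. Zm00001d044300 rose from 78.1, 73.6 and 71.3 CPM to 162, 169 and 161 CPM (log2 change 1.13, SE 0.05, edgeR adjusted p = 9.43e-19), and so lay in the range of levels but above the ratio of 2. Zm00001d044301, the raised gene beside it, stood at 37.6, 39.6 and 39.6 CPM in WT and at 57.3, 59.6 and 60.8 CPM in zmrpn1. In each of these pairs both genes were higher in all 3 zmrpn1 libraries than in any WT library, which the rule required of the raised gene. The 3 neighbours were those with the largest changes among the 24 called higher, so the pairs are given as examples.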

How the data were processed

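The authors deposited raw whole-number counts per gene for 6 libraries, with no normalization, per the values of the count table. Per the submitters' processing notes, the build was B73 RefGen_v4 and the tools were StringTie 1.3.6, DESeq2, featureCounts 1.6.4, HISAT2 2.2.1 and Trimmomatic 0.39, with no settings. The sources give neither the strand setting nor how reads over several genes were counted. Whether overlapping genes share counts is therefore not known. Columns were matched to samples by genotype code and replicate number.

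CPM is the count over the column sum. Genes were tested with edgeR 4.0.16 in R 4.3.3 (filterByExpr with a minimum count of 10, TMM, robust quasi-likelihood F test, Benjamini-Hochberg adjustment over all 23477 genes kept), and standard errors are the log2 change over the square root of F. The fits were run on simulated counts with changes of 1.3 and 2 times. That check required recovery of most changes of 2 times only, so it says little of smaller ones. The rule was checked on made-up rows of fixed values. No pair of libraries of a group agreed within sampling noise (chi-square of 2.03 to 4.87 per degree of freedom).

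The members and lists were chosen with earlier results of these data known. Members described singly were those highest in WT, with the largest or smallest ratio, the widest or narrowest gap and the smallest or largest adjusted p (4 of each), and those at each limit. Gene lists and cell type markers by name gave no match. Alternatives were other scalings, filters, DESeq2 1.42.0, limma-voom 3.58.1, the replicate number as a block, medians and each library left out.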

Additional observations from a re-analysis of the deposited data

How the results depend on the processing

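The number of genes meeting the rule was 156, and it was 145 with TMM-scaled library sizes, 140 with DESeq2 size factors, 156 with nuclear rows as the total and 160 with medians, of which 145, 140, 156 and 139 were among the 156. Leaving out a library gave 147 to 181 genes. The median log2 ratio of the 156 was 0.47 to 0.51 and the ratio of their sums 1.45 to 1.48 over all alternatives run for them. The 14 alternative fits called 154 to 156 members higher, with 152 called in the edgeR fit and all 14, and 20 to 27 of the adjacent rows (9.24% to 14% of those tested). The refits of adjacent rows and of the sums without a library were chosen after seeing the data. Of 350 refits of the 25 genes named by rule, 342 kept direction and side of the threshold, 5 passed it and 3 lost it. Zm00001d038647 lost it without WT replicate 3 (edgeR adjusted p = 0.0529) and without zmrpn1 replicate 3 (0.0516), and over its alternatives the adjusted p ran from 1.25e-05 to 0.0529. Zm00001d005975 lost it without WT replicate 1 (edgeR adjusted p = 0.0619), in a range from 3.5e-09. The adjusted p of Zm00001d027988 ran from 0.000211 to 0.409 and that of Zm00001d053908 from 8.75e-05 to 0.431. The cause was not tested. All tested genes gave 2922 calls with edgeR and 2261 to 3175 over the alternatives. A replicate block gave 3005 genes, 154 members and 25 adjacent rows, though replicate numbers show no pairing (correlations across genes, of deviations from the group means, of -0.0374, 0.0198 and 0.0306 for numbers 1 to 3). At the lowest member count of 287 counting error alone is 5.9%. The median count of the members over libraries was 1015, so that value is an upper bound and not typical of the set.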
